A study of Rattus norvegicus with 24 samples.

Results

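Maternal immune activation is modelled in rats by injecting the dam with lipopolysaccharide (LPS), a glycolipid from the bacterial cell wall. The data described here are the adult dorsolateral striatum (DLS) of offspring that met this exposure and no later stress. They comprise 6 of the 24 bulk RNA libraries of the study, chosen by their labels: 3 from LPS offspring and 3 from saline offspring. All came from male Sprague-Dawley rats whose dams were injected on gestational day 15 and again on day 16. The offspring were handled without stress in adolescence and killed on postnatal day 90, and the region was dissected from brain slices as bulk tissue. The remaining libraries are 3 per group from stressed offspring of either prenatal exposure in DLS, and the same 4 groups in the nucleus accumbens (NAc). The labels give neither the litter nor the rat of a library, so replicates may be littermates and p-values measure only the spread between these samples. LPS was given to the dam, so any exposure of the offspring was by way of her.

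LPS binds Toll-like receptor 4 and switches on NF-kB and cytokine genes in maternal immune cells. In the brain, complement proteins and lysosomal proteases are made largely by microglia, and myelin by oligodendrocytes. The striatum consists mainly of GABA-releasing projection neurons of a direct and an indirect pathway, and it borders the lateral ventricle, whose wall carries ciliated ependymal cells and the subventricular stem cell niche. In bulk tissue, fewer cells of a type and less RNA per cell cannot be told apart.

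The deposited values had lost their decimal separator, which leaves the position of the decimal point open. Relative log2 expression was recovered gene by gene where the libraries lay within a 3.16-fold range, called the arc here, and the mean of the 3 saline libraries was set to 0. Values came from all 12 DLS libraries together, which gave 9275 genes, or from the 6 unstressed libraries alone, which gave 10743. Digits at random would fall within the arc in 0.586% of genes over 12 libraries but in 18.8% over 6, so a gene that enters through the 6 libraries alone is less secure. Absolute levels and sequencing depth are unknown. A gene is also given as 1 in many libraries, 3956 to 4235 genes in each of the 6, and what this floor stands for is not given in the sources used here. All 8 direct-pathway and all 10 indirect-pathway projection neuron genes in the table were above 1 in each of the 6 libraries. So were 12396 of all 17303 genes, 9 of 10 cortical glutamatergic neuron genes and 12 of 14 leptomeningeal and fibroblast genes. Values above 1 therefore do not check the dissection.

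No single gene passed an adjusted p of 0.05 between LPS and saline offspring with limma, in 12 libraries (0 of 9275, smallest adjusted p = 0.967) or in 6 (0 of 10743, smallest adjusted p = 0.899). At an unadjusted p under 0.05, limma gave 121 genes higher (1.3% of those tested) and 180 lower (1.94%), or 301 in all (3.25%). The difference was above 0 in 53.6% of genes and below 0 in 46.4%, with a median of 0.02 log2. All 3 LPS libraries lay above all 3 saline libraries in 494 genes (5.33%) and below them in 466 (5.02%). The median 95% interval of a difference reached 0.417 log2 to either side. With array weights, 2469 genes passed. The weights were 3.28, 0.570 and 0.337 for LPS replicates 1 to 3 and 2.55, 0.610 and 3.59 for saline replicates 1 to 3. That count therefore rests mostly on LPS replicate 1 against saline replicates 1 and 3. The count at an unadjusted p under 0.05 was 133 without saline replicate 3, 160 without LPS replicate 1 and 973 without LPS replicate 3.

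The 6 libraries did not sort by prenatal exposure. Their median absolute log2 difference over genes was 0.106 between saline replicates 1 and 3, and 0.138 and 0.152 between these and LPS replicate 3. It was 0.182 and 0.192 between saline replicate 2 and LPS replicates 1 and 2, and 0.34 between LPS replicates 2 and 3. The mean relative log2 value of 55 cytosolic ribosomal protein genes followed the same order, at -0.18, 0.36 and -0.18 in saline replicates 1 to 3 and at 0.51, 0.725 and -0.20 in LPS replicates 1 to 3. LPS libraries also varied more among themselves, with a median SD of 0.234 log2 against 0.158 in saline, and the SD was larger in LPS for 6765 of the 9275 genes. Results below are given library by library for this reason, and the part of this ribosomal difference in them was not tested.

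The 10 lower genes with the smallest p included a hedgehog transcription factor, an axon guidance receptor and several actin-binding proteins, and their differences ran from -0.45 to -1.11 log2. Gli2, a transcription factor of the hedgehog pathway, was at -0.03, -0.13 and 0.16 in the saline libraries and at -1.29, -1.33 and -0.70 in the LPS libraries. Every LPS library lay well below every saline one, and the mean level with LPS was 0.464 of that with saline (difference -1.11 ± 0.28 SE, limma unadjusted p = 0.00207, adjusted p = 0.967). Magix, a PDZ-domain gene on chromosome X, read 0.03, -0.23 and 0.20 with saline and -1.32, -0.74 and -1.22 with LPS. Its difference was -1.09 ± 0.22, with limma's smallest unadjusted p in the comparison, 0.000346. Leaving out any 1 of the 6 libraries kept Magix between -1.27 and -0.98 and Gli2 between -1.31 and -0.998. The authors' table places Gli2 at chr13:39955093-40011594 and Magix at chrX:16460416-16467277, in a build not given in the sources used here.

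Of these 10 genes, 3 encode proteins that bind actin. Flna encodes filamin A, which crosslinks actin filaments, and stood at 0.07, -0.14 and 0.08 with saline against -0.998, -0.90 and -0.71 with LPS. Tagln encodes transgelin of smooth muscle and stood at -0.13, 0.06 and 0.07 against -1.34, -0.50 and -0.82. Svil encodes the actin-binding supervillin and was at -0.10, 0.12 and -0.02 against -1.01, -0.73 and -0.59. In these 3 genes no LPS library reached any saline library, and the differences were -0.87 ± 0.25, -0.89 ± 0.25 and -0.78 ± 0.23 (SE).

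Celsr3, an adhesion receptor that guides axon tracts, was at -0.26, 0.16 and 0.10 with saline and at -0.61, -0.71 and -0.52 with LPS. Dffb, the caspase-activated DNase, had closely spaced LPS values, -0.41, -0.42 and -0.53, against -0.08, 0.06 and 0.02. The lower genes were completed by Prrt4 (-0.74), Hmcn1, which encodes the extracellular matrix protein hemicentin (-0.80), and Rhbdl3, a rhomboid-family gene (-0.49). The Rhbdl3 locus in the table overlaps 8 other genes, so its value is uncertain. Because these genes were picked by p, their separation from saline follows largely from that choice.

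The 10 higher genes with the smallest p included immune, metabolic and RNA-decay genes, with differences of 0.53 to 0.94 log2. Cyp4b1, a cytochrome P450, was at 0.03, -0.20 and 0.17 with saline and at 1.11, 0.66 and 1.05 with LPS, the widest difference of the 10 (0.94 ± 0.27 SE, limma unadjusted p = 0.00494). C2, the complement protease that forms the C3 convertase with C4b, read 0.00, -0.09 and 0.09 against 0.37, 0.94 and 0.54. P2ry6, a UDP receptor that triggers phagocytosis in microglia, read 0.01, 0.00 and -0.01 against 0.53, 0.68 and 0.36. In each of these genes the lowest LPS library stood above the highest saline library.

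Ifitm1, an interferon-induced membrane protein gene, was at -0.29, 0.04 and 0.24 with saline and at 0.24, 1.15 and 0.69 with LPS, so that its lowest LPS value met the highest saline value. Dnajc25, a J-domain chaperone gene, was at 0.01, 0.08 and -0.08 against 0.33, 0.67 and 0.61. The other higher genes were Nudt22 (0.65), Sult5a1, a sulfotransferase (0.74), Capn12, a calpain (0.66), Dcp2, the mRNA-decapping enzyme (0.76), and Tnfaip8l2, a negative regulator of innate immunity (0.73). The loci of the last 3 overlap 1, 2 and 10 other genes of the table, and their values are uncertain.

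**Figure D1:**
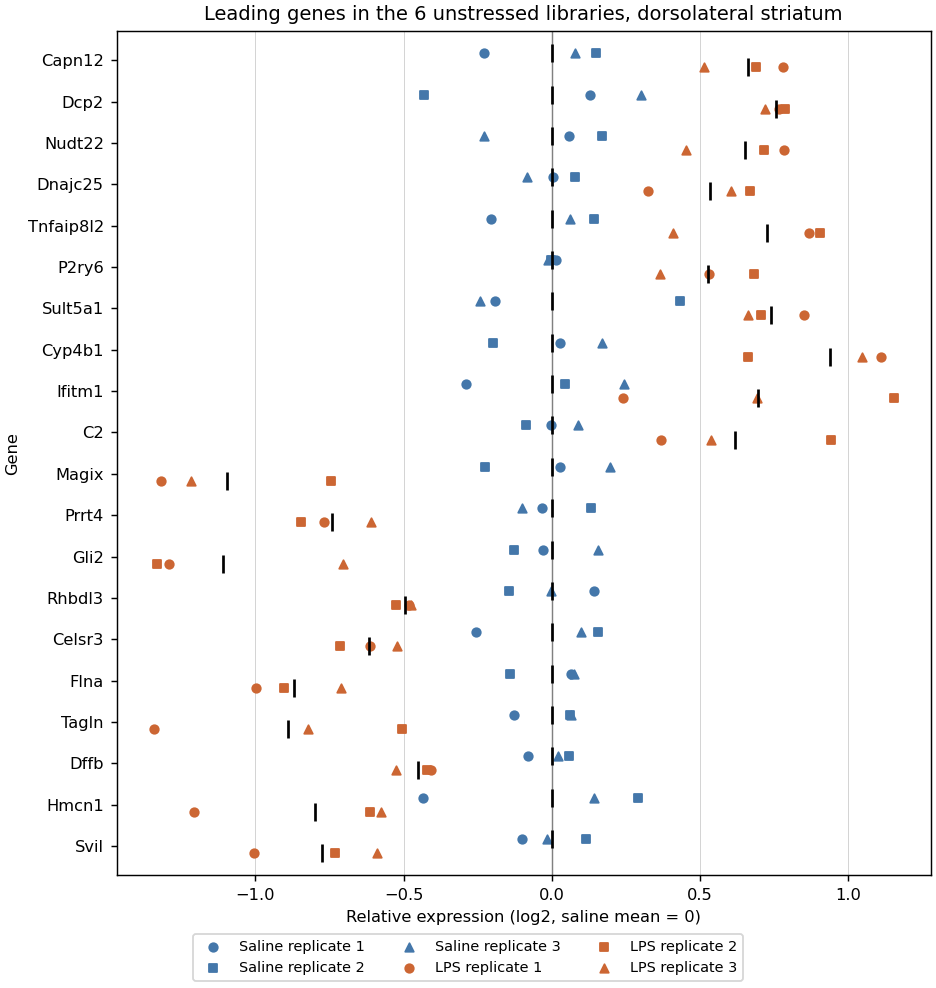
Relative log2 expression (horizontal axis, saline mean = 0) of the 10 higher and 10 lower genes with the smallest p, 1 point per library and a black tick at each group mean. Gli2 and Magix sit lowest, near -1.1, and Cyp4b1 sits highest at 0.94.

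Complement and antigen presentation genes stood higher in LPS offspring, by a median of 0.35 log2 against 0.02 over all genes tested. Of 13 members measured in 12 libraries, 11 were above 0 (53.6% of all genes), 3 had an unadjusted p under 0.05 by limma (higher in 1.3% of all genes) and 6 had every LPS library above every saline library (5.33%). C1qa, a chain of the C1q complex that starts the classical pathway, was at -0.11, 0.10 and 0.00 with saline and at 0.55, 1.30 and 0.25 with LPS. C1qb read -0.11, 0.13 and -0.02 against 0.41, 0.79 and 0.16. Both were highest in LPS replicate 2, the library that also had the highest ribosomal protein values, and the list's median was 0.18 without it. RT1-A1, a class I antigen gene whose reads can be shared with near-identical RT1 genes, was 0.57 higher, while RT1-CE5 (-0.04) and C4a (-0.03), whose loci overlap 19 and 15 other genes, had uncertain values near 0.

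The microglial genes were split. Of 17 measured members, 12 were higher and 5 lower (median 0.21, and 0.03 without LPS replicate 2). Ctss, the lysosomal cathepsin S of microglia and antigen-presenting cells, was even across libraries, at -0.13, 0.03 and 0.10 with saline and 0.66, 0.62 and 0.56 with LPS (0.61 ± 0.20 SE, limma unadjusted p = 0.00901). Trem2, a lipid-sensing receptor, read -0.15, 0.23 and -0.07 against 0.56, 1.12 and 0.26, and Aif1, which encodes Iba1, read -0.17, 0.29 and -0.13 against 0.62, 1.20 and 0.13. The homeostatic microglial receptor P2ry12 went the other way, at 0.08, -0.08 and 0.00 against -0.25, -0.42 and -0.59, so that all LPS libraries were below all saline ones (5.02% of all genes). Cx3cr1, measured in the 6 libraries alone, overlapped between the groups (-0.23 ± 0.37 SE).

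Interferon, cytokine and Toll-like receptor genes had medians close to that of all genes. Of 11 interferon response genes 2 were higher (median -0.05), of 14 cytokine and receptor genes 10 (median 0.01) and of 21 Toll-like receptor 4 and NF-kB genes 12 (median 0.04). Tlr4 itself was at 0.14, -0.71 and 0.57 with saline and -0.05, -0.26 and 0.28 with LPS. Nfkbib, an inhibitor of NF-kB, was 1 of 3 genes of its list in which all LPS libraries lay above all saline libraries (5.33% of all genes), with 0.34, 0.51 and 0.26 in LPS libraries against a highest saline value of 0.16. Lysosomal genes were higher in 16 of 20 (53.6% of all genes, median 0.11).

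Ctss is shown with its promoter because its 3 LPS values were so close. Letters of an interferon-stimulated response element, GAAANN followed by GAAA on either strand, were searched in the 300 bases around gene starts that RefSeq gives for GRCr8 (250 before, 50 after). They occur in 3.92% of all 33469 windows. Of the 19 complement and antigen presentation genes with a window, a list that does not hold Ctss, 5 had a match in any window. A share of genes and a share of single windows are unlike units. The Ctss window lies at chr2:185775146-185775445 on the plus strand, with the match, in capitals, starting at -36. The letters are a description of the window and not a site of binding.
Ctss: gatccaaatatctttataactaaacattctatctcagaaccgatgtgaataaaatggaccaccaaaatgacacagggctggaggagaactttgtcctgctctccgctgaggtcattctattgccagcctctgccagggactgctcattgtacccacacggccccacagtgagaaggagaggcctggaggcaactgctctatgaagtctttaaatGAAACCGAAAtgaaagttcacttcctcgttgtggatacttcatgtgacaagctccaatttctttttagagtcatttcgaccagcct

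Oligodendrocyte and myelin genes were higher by a small and even amount. Of 27 measured genes 25 were above 0 (53.6% of all genes), with a median of 0.18 log2, and 10 had every LPS library above every saline one (5.33% of all genes). The mean over the 27 genes was 0.01, -0.05 and 0.05 in the saline libraries and 0.11, 0.19 and 0.27 in the LPS libraries, so the groups did not overlap, and LPS replicate 3 was the highest. Pllp, which encodes plasmolipin of the myelin membrane, read -0.06, 0.02 and 0.04 with saline against 0.26, 0.47 and 0.32 with LPS (0.35 ± 0.13 SE, limma unadjusted p = 0.0188). Mal, a myelin proteolipid gene, read 0.08, -0.17 and 0.08 against 0.26, 0.14 and 0.59, and Mog, a protein of the outer myelin surface whose locus overlaps 1 other gene, read -0.02, -0.10 and 0.12 against 0.18, 0.26 and 0.38. Mbp, which encodes myelin basic protein, was 0.42 higher and overlapped between groups. Sox10 and Myrf, transcription factors that drive the myelin programme, read -0.04 and -0.12. Without any 1 library the median of the list stayed between 0.14 and 0.23.

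Of 35 gene lists with at least 5 measured members, the mean of the members separated the 3 LPS from the 3 saline libraries in 4, or 11.4%, a share near the 10.4% of single genes separated in either direction. Lysosomal, myelin and heat shock genes were higher, and hedgehog genes were lower. With the members measured in the 6 libraries alone, the lysosomal means overlapped, while neurotrophin and neuregulin genes stood apart (-0.16, -0.13 and -0.14 with LPS against a lowest saline value of -0.02), so that 4 of 36 lists were separated. Heat shock and chaperone genes read -0.06, 0.07 and -0.01 with saline and 0.17, 0.10 and 0.12 with LPS, and 13 of 19 were higher. Cryab, the small heat shock protein alpha-B crystallin, was 0.58 ± 0.25 higher and Dnajb14, a J-domain protein of the endoplasmic reticulum, 0.43 ± 0.18 (SE).

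**Figure D2:**
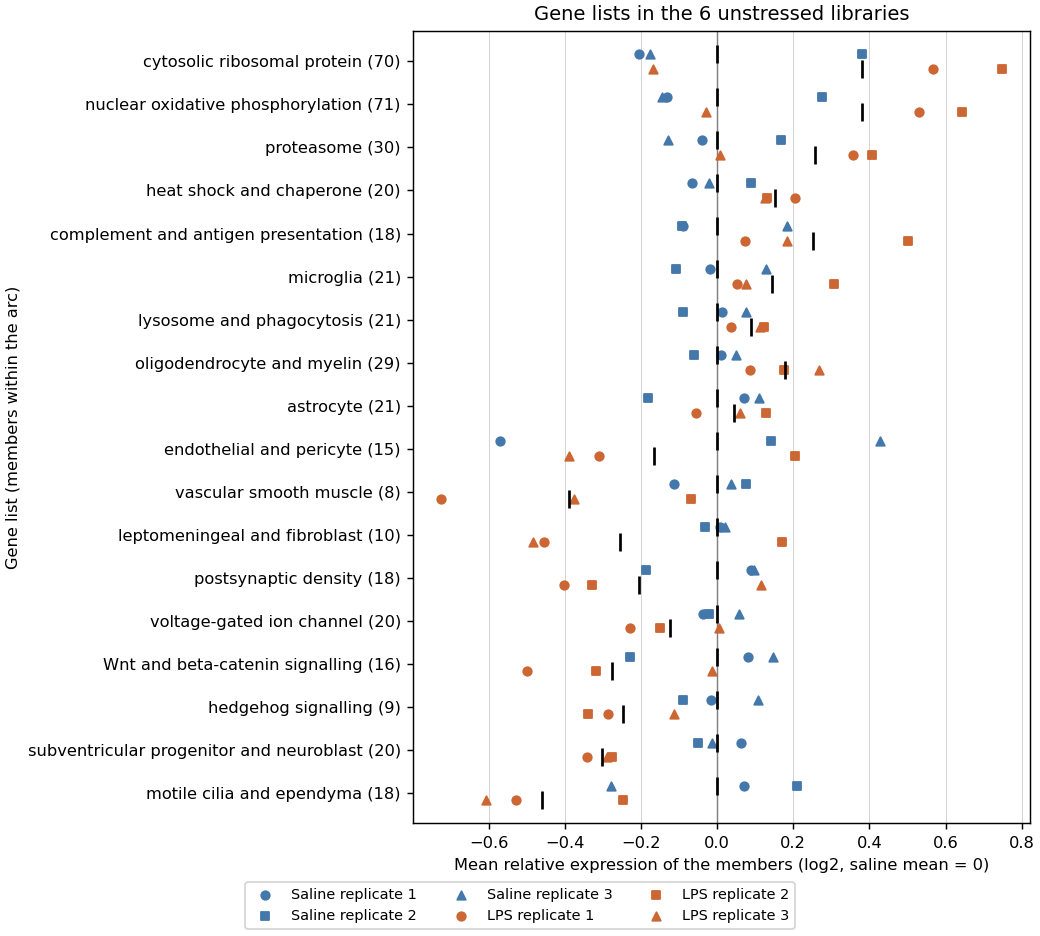
Mean relative log2 value of the members of 18 gene lists (horizontal axis, saline mean = 0) in each of the 6 unstressed libraries, with the number of members measured there in brackets and a black tick at each group mean. LPS replicate 3 stands with saline replicates 1 and 3 in ribosomal and oxidative phosphorylation genes, and beside the other LPS libraries in myelin, subventricular and cilia genes.

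Genes of cell growth and energy supply had high medians, but their mean levels overlapped between the groups. All 55 ribosomal protein genes had a difference above 0 (median 0.35), and in 0 of them did the LPS libraries all exceed the saline libraries. Of 62 nuclear oxidative phosphorylation genes 59 were higher (median 0.37, 7 separated), and of 30 proteasome genes 29 (median 0.26, 4 separated), where 53.6% of all genes were higher and 5.33% separated above saline. Without LPS replicate 3 the ribosomal median was 0.63, and without LPS replicate 2 it was 0.17. Uqcr10, a subunit of complex III, stood higher in every LPS library, at -0.21, 0.29 and -0.08 with saline and 1.27, 0.76 and 0.31 with LPS.

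Hedgehog signalling genes were lower in all 6 measured members, where 46.4% of all genes were lower (median -0.25). Their mean was 0.02, -0.13 and 0.12 with saline and -0.41, -0.42 and -0.43 with LPS. Disp1, which releases hedgehog from the cells that make it, was 0.38 ± 0.23 (SE) lower and overlapped. Gli1, Ptch1, Smo and Gli3 lay outside the arc and gave no value. With the 9 genes measured in the 6 libraries alone, 7 were lower (median -0.12), the LPS libraries stood at -0.29, -0.34 and -0.11 on average, and the ligand genes Shh and Ihh read 0.17 and 0.51. The GLI letters GACCACCCA, on either strand, were in any window of 1 of the 11 hedgehog genes with a promoter window. They were in 0.39% of all single windows, which is an unlike unit.

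Of other developmental and excitability lists, 4 had medians below 0 whose size, but not sign, changed when 1 library was left out. Below 0 were 46.4% of all genes. Of 12 Wnt and beta-catenin genes 10 were lower (median -0.20), led by Axin2, a feedback inhibitor and target of the pathway, at -0.12, 0.01 and 0.11 against -0.47, -0.80 and -0.24. Of 15 axon guidance genes 12 were lower (median -0.10). Of 16 voltage-gated channel genes 11 were lower (median -0.15), among them the L-type calcium channel genes Cacna1c (-0.52 ± 0.21 SE) and Cacna1d (-0.40 ± 0.16). Postsynaptic density genes were lower in 11 of 13 (median -0.13), with 0 at an unadjusted p under 0.05 (limma) and 0 separated below saline, while presynaptic release genes were divided 8 higher to 7 lower (median 0.01). Without 1 library the medians lay between -0.29 and -0.11 for Wnt, between -0.22 and -0.062 for axon guidance and between -0.17 and -0.067 for channel genes. For postsynaptic genes they ran from -0.25 to -0.0052, the latter without LPS replicate 1.

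Vascular and meningeal markers were lower in LPS replicates 1 and 3 and not in LPS replicate 2. The mean of 9 leptomeningeal and fibroblast genes was 0.00, -0.02 and 0.02 with saline and -0.38, 0.19 and -0.46 with LPS. Col3a1, a fibrillar collagen gene, was nonetheless low in all 3, at -0.65, -0.28 and -0.54 against 0.02, 0.09 and -0.11. It was the only 1 of the 9 separated below saline, where 5.02% of all genes were. Endothelial and pericyte genes were lower in 12 of 14 (46.4% of all genes, median -0.17). Their saline libraries alone ran from -0.56 to 0.40, and the median was 0.02 without saline replicate 3. Pdgfrb, the pericyte receptor, was lower in every LPS library (-0.44, -0.21 and -0.30 against -0.06, -0.03 and 0.09). It was the only 1 of the 14 separated below saline, a share near that of all genes. Tagln and Flna, described above, are also genes of contractile vessel cells. Vascular smooth muscle markers were lower in 4 of 5 (46.4% of all genes, median -0.22), and 1 had an unadjusted p under 0.05 with limma (1.94%). The 4 are not separate from the leading lower genes, which were picked by p.

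Genes of motile cilia, which ependymal cells use to move cerebrospinal fluid, stood lower in the 6 unstressed libraries. The list of 36 cilia genes was put together after Rfx2, Dnali1 and Lrrc9 had been seen among the lowest genes, so its direction is partly set by that choice. Of the 36, 18 were within the arc, 11 spanned more than 3.16-fold and 7 were given as 1 in some library. Of the 18, 17 were lower (49.2% of all genes tested there), with a median of -0.42 log2 against 0.00 over all genes tested, 7 had an unadjusted p under 0.05 (limma, 3.02% of all genes lower), and in 4 every LPS library lay below every saline one (5.31%). Both counts include the 3 genes that prompted the list. Of the other 15, 14 were lower (median -0.40), 4 had an unadjusted p under 0.05 and 1, Dnai2, was separated (6.67%), a share near the background. Ak7, an adenylate kinase of the axoneme, was above 0 (0.18). Leaving out 1 library turned the sign of 6 of the 18 genes. Ak7 reached -0.11, and the 5 others, Enkur, Rfx3, Zmynd10, Tppp3 and Efcab1, came above 0, Zmynd10 the furthest at 0.15 without LPS replicate 3.

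Rfx2, a transcription factor of ciliary genes, was at 0.01, 0.28 and -0.29 with saline and at -0.94, -1.19 and -1.09 with LPS (-1.07 ± 0.18 SE, limma unadjusted p = 0.00052, adjusted p = 0.899). Lrrc9, a leucine-rich repeat gene, read -0.12, -0.11 and 0.23 against -0.95, -1.16 and -1.02. Dnali1, a dynein light intermediate chain gene whose locus overlaps 1 other gene, read 0.08, 0.20 and -0.28 against -1.33, -0.93 and -0.85. In these genes the groups were far apart, whereas Tppp3 (-0.05) and Enkur (-0.17) overlapped. Foxj1, the regulator of motile ciliogenesis, spanned 3.3-fold and had no value. Ccno, Stoml3 and Sntn were given as 1 in all 3 LPS libraries and in 0, 0 and 1 saline libraries. Lrrc23 was at 1 in 3 LPS and 2 saline libraries, Spag16 in 2 and 2, Meig1 in 2 and 0 and Tmem212 in 1 and 0. Ccno was also at 1 in all 3 libraries of both stressed DLS groups, and Stoml3 in 2 of each. The mean of the 18 genes was 0.07, 0.21 and -0.28 with saline and -0.53, -0.25 and -0.61 with LPS, so that saline replicate 3 stood just below LPS replicate 2.

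**Figure D3:**
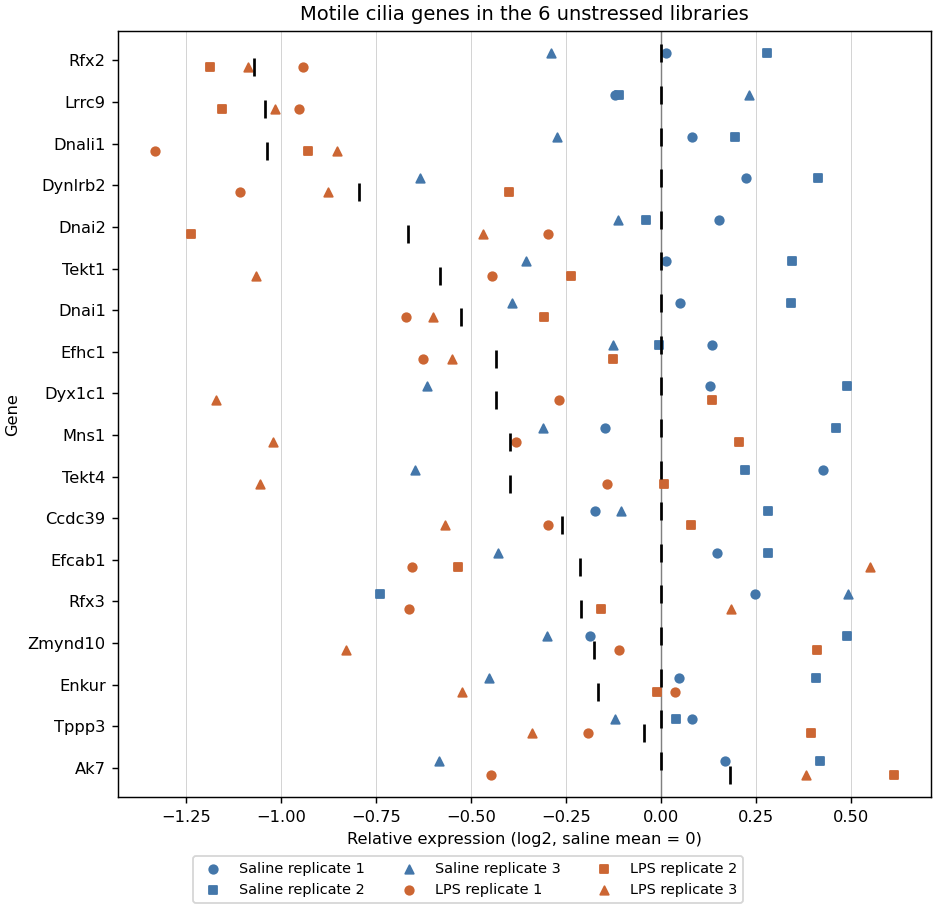
Relative log2 expression (horizontal axis, saline mean = 0) of the 18 motile cilia genes within the arc in the 6 unstressed libraries, ordered by their difference, with a black tick at each group mean. Rfx2, Lrrc9 and Dnali1 lie near or below -0.85 in all 3 LPS libraries, while the lower part of the plot overlaps.

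The promoters of Rfx2 and Lrrc9 are shown as those of the 2 cilia genes with the smallest p. The half-site letters of the X-box that RFX factors bind are GTTGCC on either strand. They occur in 12.2% of all windows and in 13 of the 25 cilia genes with a RefSeq window, or 52.0%. The first share counts single windows and the second counts genes with a match in any window, so the 2 are unlike units. The Rfx2 window lies at chr9:1758097-1758396 on the minus strand and the Lrrc9 window at chr6:96761029-96761328 on the plus strand (GRCr8), with matches in capitals that start at -141 and -112. Both matches describe letters and say nothing of binding.
Rfx2: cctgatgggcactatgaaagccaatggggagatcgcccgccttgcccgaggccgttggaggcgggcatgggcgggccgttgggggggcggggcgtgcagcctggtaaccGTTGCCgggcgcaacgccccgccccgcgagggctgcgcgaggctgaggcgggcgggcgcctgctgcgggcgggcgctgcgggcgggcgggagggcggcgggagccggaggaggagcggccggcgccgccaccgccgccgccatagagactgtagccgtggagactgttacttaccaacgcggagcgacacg
Lrrc9: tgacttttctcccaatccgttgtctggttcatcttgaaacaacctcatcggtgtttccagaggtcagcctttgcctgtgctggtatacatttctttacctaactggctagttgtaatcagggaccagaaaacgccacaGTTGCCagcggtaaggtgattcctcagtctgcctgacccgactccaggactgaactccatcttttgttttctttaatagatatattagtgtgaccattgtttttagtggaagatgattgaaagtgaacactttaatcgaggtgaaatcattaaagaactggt

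The other genes lowest in the 6 libraries alone included markers of progenitors and of the ventricular wall. Vim, the intermediate filament of radial glia and ependyma, was at -0.04, 0.05 and -0.01 with saline and -1.26, -0.65 and -0.85 with LPS. Dlk1, a non-canonical Notch ligand, read -0.09, -0.17 and 0.26 against -1.26, -1.40 and -0.88, and Foxm1, a regulator of mitotic genes, read 0.32, -0.20 and -0.12 against -1.17, -0.955 and -0.75. Of 20 measured genes in a list of subventricular progenitor and neuroblast markers, also put together after values had been seen, 15 were lower (49.2% of all genes, median -0.30) and 6 had every LPS library below every saline one (5.31%). Vim and Foxm1 are among those 6, so the choice of the list partly sets the count. Mcm3, a replication licensing gene, was 0.72 ± 0.21 (SE) lower and Sox2, a stem cell factor, 0.24 ± 0.23 (SE). Stmn1, which destabilises microtubules in growing neurons, went against the list at 0.59. Gbx2 (-0.77), Ednra, an endothelin receptor (-0.91), Mfap2, a microfibril gene (-1.03), and Cass4 (-1.19) were also among the lower genes. Snrpg, a core spliceosome protein gene (0.82), Gpr21 (0.96) and Cox6b2 (0.82) led the higher ones.

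The floor value of 1 separated some genes outright. Among 1648 genes given as 1 in some but not all of the 6 libraries, 26 (1.58%) were at 1 in all LPS libraries and above it in all saline libraries, and 4 (0.243%) the reverse. Every LPS library also had more genes at 1 than every saline library, 4235, 4218 and 4147 against 3956, 4013 and 4040, and the part of this overall difference in the 26 genes was not tested. The corresponding counts were 6 and 9 in stressed DLS, and 20 and 5 in unstressed NAc. Genes at 1 with LPS included Arhgap8, Msx3, a homeobox gene, and Kcnj13, an inward-rectifier potassium channel of choroid plexus, each of which was at 1 in at most 1 library of any other group. Agtr1a, the type 1 angiotensin receptor and 1 of the 26, was also at 1 in 2 stressed saline libraries.

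The 4 genes at 1 in every saline and in no LPS library were Klk8, Nmur1, St6galnac1 and Mirlet7b. Klk8 encodes neuropsin, a protease of synaptic remodelling, and Nmur1 a neuromedin U receptor. Mirlet7b is the precursor of the let-7b microRNA, and a poly(A)-selected library reads its transcript, not the mature strand. The mature sequence in RefSeq (rno-let-7b-5p, GRCr8, chr7:118684044-118684065, plus strand) is given to identify it, with its seed, bases 2 to 8, in capitals. Mirlet7b was at 1 in 2 stressed saline and all 3 stressed LPS libraries, so it was above 1 in the unstressed but not in the stressed LPS libraries. In NAc it was at 1 in 1 unstressed saline library and in 2 libraries of each other group.
rno-let-7b-5p: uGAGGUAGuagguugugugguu

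The main receptor and peptide genes of striatal neurons overlapped between the groups, while some other projection neuron genes did not. Drd1, the dopamine receptor of the direct pathway, was at 0.13, -0.18 and 0.05 with saline and -0.32, -0.43 and 0.39 with LPS (-0.12, 95% interval -0.62 to 0.38). Drd2, the receptor of the indirect pathway, read 0.21, -0.47 and 0.27 against -0.49, -0.20 and 0.33 (-0.12, -0.78 to 0.54). Penk and Tac1, the enkephalin and substance P precursors, differed by 0.22 and 0.23, Ppp1r1b, which encodes DARPP-32, by -0.02 and Gad1 by 0.04. Of 7 direct-pathway genes in 12 libraries, 5 were lower (46.4% of all genes, median -0.12), and 2 had every LPS library below every saline one (5.02%). Those were Chrm4, the M4 muscarinic receptor (0.05, 0.01 and -0.06 against -0.28, -0.11 and -0.22), and Slc35d3 (-0.01, 0.11 and -0.09 against -0.40, -0.17 and -0.27). Isl1, a transcription factor of direct-pathway neurons measured in the 6 libraries alone, read 0.15, -0.24 and 0.09 against -0.45, -1.003 and -0.59. These genes were chosen after their values were seen, and the direct-pathway median was 0.01 without LPS replicate 2. In 0 of 8 indirect-pathway genes were the groups separated. The 95% interval of each of the receptor, peptide and enzyme genes above reached 0.30 log2 or more to either side of 0. Nr3c1, the glucocorticoid receptor, whose locus overlaps 4 other genes, was at -0.01, and its target Fkbp5 at 0.09.

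The LPS contrast was measured again in libraries that share none with the 6, the stressed offspring in DLS and the unstressed offspring in NAc. Over genes, differences with LPS alone in DLS ran against those in stressed DLS (Pearson r = -0.28 over 9275 genes) and against those in NAc (r = -0.36 over 9031 genes), where genes are not independent replicates and share the ribosomal difference between libraries. Ribosomal protein genes were lower with LPS in 39 of 55 in stressed DLS (53.7% of all genes there) and in 59 of 69 in NAc (48.4%). The 10 leading lower genes were also below 0 in stressed DLS in 3 cases (53.7% of all genes) and in NAc in 5 of 9 measured (48.4%). The 10 leading higher genes were above 0 in 7, where 46.3% of all genes were, and in 4 of 9, where 51.6% were. Of the 301 genes at an unadjusted p under 0.05 (limma), 95 kept their sign in stressed DLS (31.6%), where 37.5% of all genes did. In NAc 71 of 288 measured did (24.7%), against 33.3% of all genes. Gli2 stood at -0.43 ± 0.28 (SE) in stressed offspring and P2ry6 at 0.24 ± 0.15, whereas Flna (0.24), Tagln (0.48), Svil (0.32) and Celsr3 (0.34) were above 0 there. No interaction of LPS with stress passed in DLS (limma, 0 of 9275 genes, 481 at an unadjusted p under 0.05, 5.19%), nor any difference between regions (0 of 7667, 346 at an unadjusted p under 0.05, 4.51%, or 2908 adjusted with array weights).

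**Figure D4:**
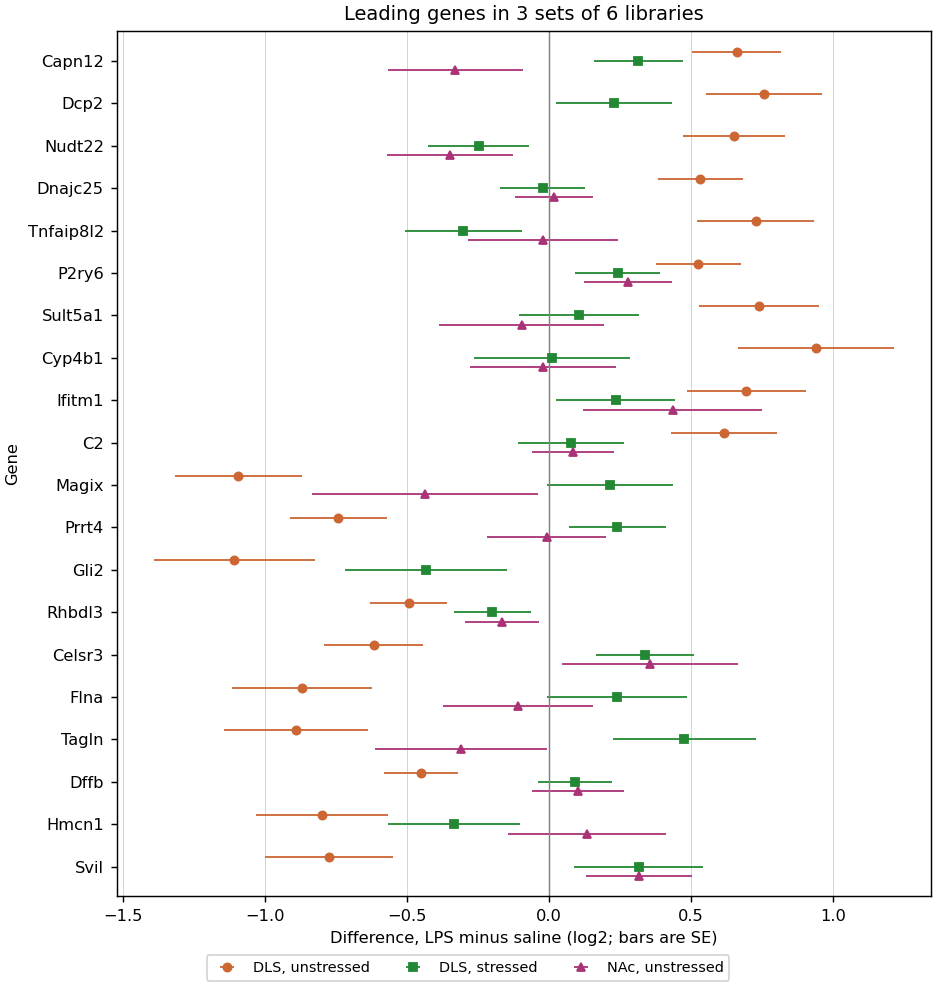
Difference between LPS and saline offspring (log2, horizontal axis) with its SE for the 20 leading genes in unstressed DLS, from which they were chosen, in stressed DLS and in unstressed NAc. All points outside unstressed DLS lie nearer 0 than the point that chose the gene, and Gli2, Rhbdl3, P2ry6, Ifitm1, C2 and Dcp2 keep their sign where measured.

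Myelin and cilia genes had the same direction in NAc, and myelin genes did not in stressed DLS. All 28 myelin genes measured in NAc were higher with LPS (51.6% of all genes, median 0.23). There, 4 were separated (4.84%) and 2 had an unadjusted p under 0.05 with limma (1.64%). In stressed DLS 8 of 27 were higher (46.3%, median -0.07), and 24 of 27 had an interaction below 0 (54.2%). In the 6 unstressed NAc libraries, 18 of 21 cilia genes were lower (46.7% of all genes, median -0.34) and 3 had an unadjusted p under 0.05 with limma (2.22%). Among them Foxj1 stood at -0.89 and Rsph1, a radial spoke gene, at -1.03, while Rfx2 (-0.27) and Lrrc9 (-0.08) were near the saline level. Only 4 cilia genes could be measured in the 6 stressed DLS libraries. Complement genes were at a median of 0.04 in stressed DLS and 0.01 in NAc. Hedgehog genes were lower in 4 of 6 in stressed DLS (53.7% of all genes, median -0.12). In NAc all 7 measured were higher (51.6%, median 0.11), as were all 14 measured in its 6 unstressed libraries alone (53.3%, median 0.24). Whether DLS and NAc libraries came from the same rats is not in the labels.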

How the data were processed

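Per the labels' protocols, RNA was purified with an RNeasy kit, and directional libraries were built from poly(A) RNA. Per the submitters' processing notes, STAR 2.6.25.17 and Cuffdiff 2.2.1 were used. Neither build nor annotation is named, and loci are those of the deposited table. The authors deposited 1 table of 17303 genes in 24 libraries, headed FPKM, whose values, without their decimal separator, were handled as a score. It holds 97026 values of 1 and 12 blanks.

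For each gene, log10 digits were placed on a circle, and genes whose libraries fit within 0.5 decades were read as relative log2 values. A difference near 10-fold would appear as none, and one above 3.16-fold can change sign. Group means were fitted with limma 3.58.1 (R 4.3.3, empirical Bayes, 8 residual degrees of freedom over 12 DLS libraries), with Benjamini-Hochberg adjustment over all genes. The design had assumed usable FPKM, so no pseudocount, expression filter or trend was applied. The procedure was tested on simulated digits. Genes were named as the 10 with the smallest p in each direction, the 3 with the smallest p of each list, a set of striatal and glial genes, and genes split by the value 1. P2ry12, Sox10, Myrf, Chrm4, Slc35d3, Isl1, RT1-A1, RT1-CE5, C4a, Foxm1, Mcm3, Sox2, Stmn1, Shh, Ihh, Agtr1a and the cilia genes were named after their values were seen. Some items are not reported here. The members and lists were chosen with earlier results of these data known.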

Additional observations from a re-analysis of the deposited data

How the results depend on the processing

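The count of 0 genes for LPS alone in DLS held at arcs of 0.3 and 0.7 decades, with libraries centred, with robust empirical Bayes, in the 6 libraries alone and without each library, and became 2469 with array weights. At an unadjusted p under 0.05, 301 genes became 3929 with array weights and 531 in the 6 libraries alone, and ranged from 133 to 973 without 1 library. In NAc, 0 became 1 at an arc of 0.7 decades and 634 with array weights, and 0 to 1 without 1 library. Differences between regions gave 2908 genes with array weights. The 30 genes split by the value 1 became 168 where 2 of 3 libraries sufficed, and 52 to 89 without 1 library, since fewer libraries need to match. With array weights the sign turned for Faah (-0.018), Ifitm2 (0.057), Rorb (-0.10) and Dbp (-0.33). Without 1 library, values ran from -0.16 to 0.31 for Faah, from -0.027 to 0.67 for Dlgap1, from -0.020 to 0.60 for Il1a, from -0.57 to 0.18 for Ifitm2, from -0.13 to 0.46 for Ifit2, from -0.54 to 0.053 for Ocln, from -0.088 to 0.30 for Rorb, from -0.050 to 0.50 for Dbp. The cause was not tested. Depth is unknown, so no counting interval can be given. No paired analysis was possible because the labels carry no replicate numbers shared between groups.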

Other observations

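Some single genes of neurotrophic and peptide signalling are given here. Ret, the receptor of glial-derived neurotrophic factor, was at -0.26, 0.00 and 0.26 in the saline libraries and at 0.60, 0.58 and 0.67 in the LPS libraries, so that every LPS library was above every saline one (0.61 ± 0.27 SE, limma unadjusted p = 0.0401, adjusted p = 0.967). Ret was the only 1 of 8 measured neurotrophin and neuregulin genes separated above saline (5.33% of all genes), and in stressed offspring it stood at -0.58. Ntrk3, the neurotrophin-3 receptor, was at -0.42 and Igf1r at -0.44, and 5 of 8 neurotrophin and neuregulin genes were lower (median -0.17). Sst, the somatostatin of striatal interneurons, read -0.11, 0.55 and -0.44 with saline and 0.95, 0.79 and 0.22 with LPS, and the groups overlapped.

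Immediate early genes were higher in 8 of 14 (53.6% of all genes), with a median of 0.15 that was 0.02 without saline replicate 1. Glucocorticoid-responsive genes (9 of 13 higher, median 0.09), circadian clock genes (6 of 11 higher, median 0.03) and dopamine signalling genes (4 of 12 higher, median -0.03) had medians within 0.1 log2 of that of all genes, 0.02. Fosb, a transcription factor induced by repeated stimulation, was at -0.45 ± 0.28 (SE), at -0.15, -1.02 and -0.19 in the LPS libraries, each below the lowest saline value of -0.10. Lyve1, a marker of perivascular macrophages, was at -0.74, 0.00 and -1.26 with LPS, and it was also lower with LPS in stressed offspring (-0.79). It was the only 1 of 7 perivascular macrophage genes measured in 12 libraries. In the 6 libraries alone 2 were measured, 1 higher and 1 lower, so Lyve1 does not speak for the cell type. Astrocyte genes were higher in 16 of 20 (median 0.08), with S100b at 0.25, 0.31 and 0.22 in the LPS libraries and at most 0.04 in saline.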
